A study of Mus musculus with 8 samples.

Results

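The BCL2 family sets whether a cell keeps the outer membrane of its mitochondria intact. The genes described here are Bcl2, Bcl2l1, Mcl1, Bax, Bak1, Bid, Bcl2l11, Pmaip1, Bbc3 and Bmf, 10 genes chosen by exact symbol for their known function and found among the 21240 genes of the deposited count table. Their RNA was measured in NMuMG cells, a wild-type mouse mammary gland epithelial line grown with serum and insulin. The groups were BRM014 for 30 h, its vehicle control DMSO for 30 h, BRM014 for 6 h and DMSO for 6 h, with 2 libraries each. BRM014 is a small molecule that inhibits SMARCA4 and SMARCA2, the ATPases that drive SWI/SNF chromatin remodelling complexes, and its dose is not given in the sources used here. All groups are the same line. The labels call the replicates biological without saying what was separate between them, so p-values measure the spread between these libraries.

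In the BCL2 family, anti-apoptotic proteins such as BCL2, BCL-XL and MCL1 hold back the effectors BAX and BAK, which otherwise form pores in the outer mitochondrial membrane and release cytochrome c. BH3-only proteins respond to stress signals and tip this balance, either by occupying the anti-apoptotic proteins or by activating the effectors directly. In mammary epithelium the family is known for its part in clearing the lumen of forming acini and in removing milk-producing cells after weaning, and BMF and BIM are known for the death of epithelial cells that lose their attachment.

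Library totals ran between 17859693 and 29955366 counts, and replicates of a group correlated at r = 0.990 to 0.994 across genes on the log2 scale. Of the epithelial markers, Krt8, Krt18, Krt19, Cdh1 and Ocln were expressed, with a summed level of 7465 to 8698 CPM (counts scaled to a fixed library size) in BRM014 libraries and 5579 to 5741 CPM in DMSO libraries at 30 h, and of 5563 to 6149 CPM in BRM014 libraries and 5981 to 6334 CPM in DMSO libraries at 6 h. Epcam and Cldn3 had no count in any library, Cldn4 had 2 counts and Esrp1 had 1 count over all 8 libraries. Fibroblast, endothelial and adipocyte markers summed to at most 2.77, 0.257 and 0.0513 CPM in a library, while leukocyte markers, of which Cd68 was nearly all, summed to 2.12 to 2.35 CPM in BRM014 libraries and 3.81 to 6.20 CPM in DMSO libraries at 30 h and to 3.80 to 5.20 CPM in BRM014 libraries and 6.96 to 8.06 CPM in DMSO libraries at 6 h. The part of these marker differences in the results below was not tested. Neither Smarca4 nor Smarca2 RNA passed the test at 30 h or at 6 h (adjusted p = 0.347 to 0.856), which is no check of the labels because the compound acts on the proteins.

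BRM014 cultures held more RNA of the BH3-only gene Bbc3 and of the anti-apoptotic gene Bcl2, and less of the BH3-only gene Bmf and the anti-apoptotic gene Bcl2l1, at both times. Bmf was 3.88-fold lower at 30 h and 7.62-fold lower at 6 h. Of the 10 genes, 7 passed an adjusted p of 0.05 at 30 h, of which 4 rose and 3 fell, where 35.9% of all 11835 tested genes passed (16.8% higher and 19.1% lower). At 6 h, 5 passed, of which 3 rose and 2 fell, where 23.8% of all tested genes passed (9.35% higher and 14.4% lower). The BRM014 and DMSO libraries did not overlap for 8 of the 10 genes at 30 h, against 66.8% of all tested genes, and for 8 at 6 h, against 65.2%. These shares for the family rest on 10 genes. The median log2 fold change of the 10 genes was 0.18 at 30 h, against -0.0046 over all tested genes, and 0.04 at 6 h, against -0.012 over all tested genes. All 10 genes passed the filter on low counts. In these bulk cultures, fewer cells of a kind and less RNA per cell cannot be told apart.

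**Figure D1:**
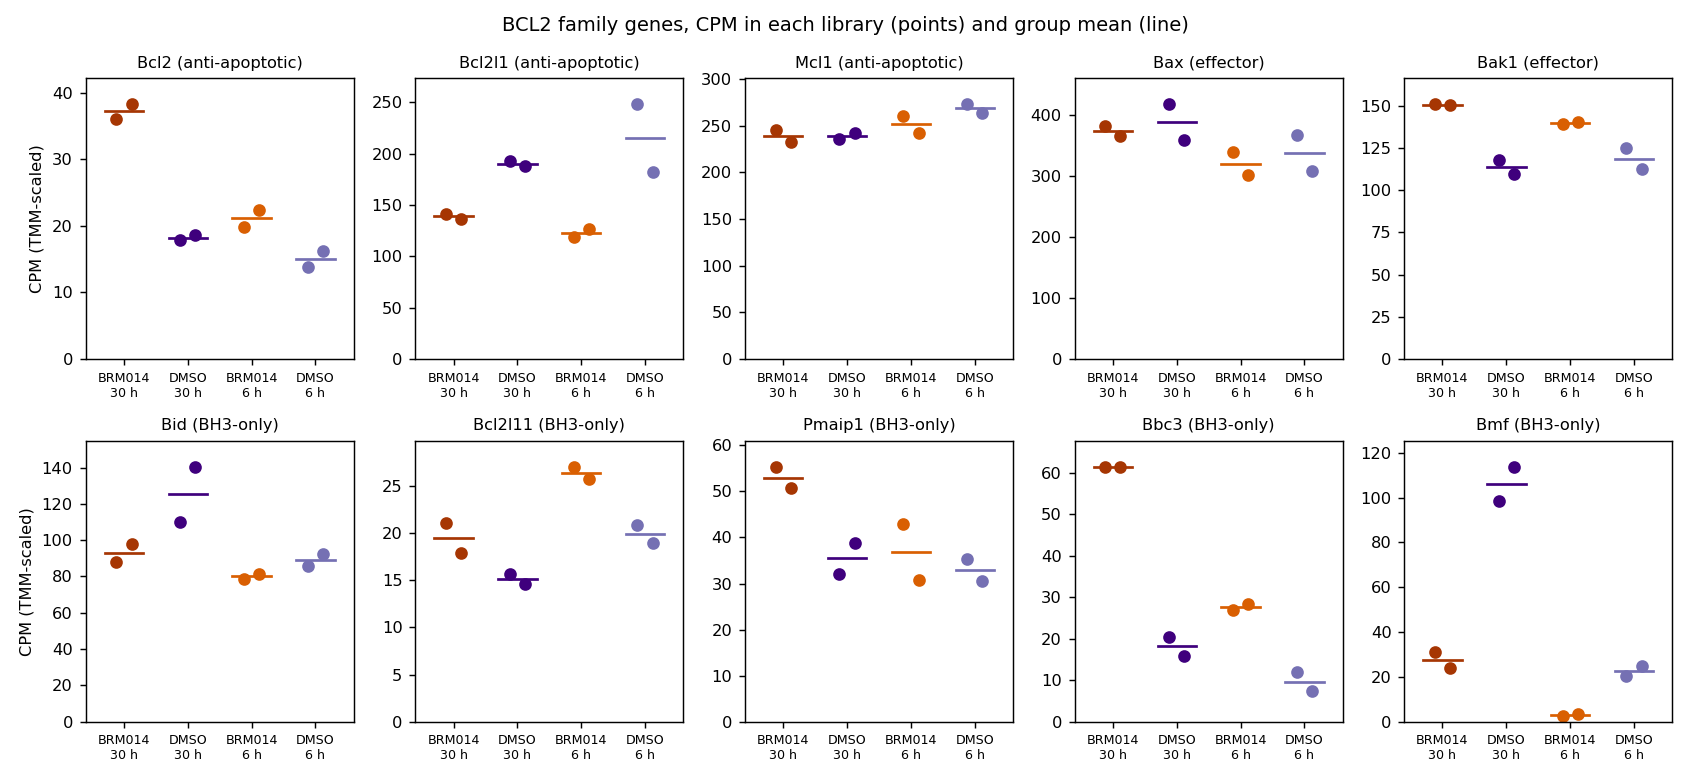
CPM after TMM scaling (vertical axis, from 0, a scale of its own in each panel) of the 10 BCL2 family genes in each library (points, 2 per group) with the group mean (line), with the 30 h groups left of the 6 h groups. Bmf lay at 23.9 to 31.0 CPM in BRM014 libraries and 98.4 to 114 CPM in DMSO libraries at 30 h, while Bbc3 lay at 61.4 to 61.5 CPM in BRM014 libraries and 15.9 to 20.5 CPM in DMSO libraries.

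Among the anti-apoptotic genes, Bcl2, the founding member of the family, had 36.1 and 38.3 CPM in BRM014 libraries at 30 h, against 17.8 and 18.6 CPM in DMSO libraries. At 6 h Bcl2 had 19.9 and 22.4 CPM in BRM014 libraries, against 13.8 and 16.2 CPM in DMSO libraries. Both BRM014 libraries lay above both DMSO libraries at each time, and the BRM014 libraries of 30 h were the highest of all 8. Bcl2 rose by a log2 fold change of 1.03 ± 0.13 (SE) at 30 h (adjusted p = 4.55e-05) and of 0.50 ± 0.14 at 6 h (adjusted p = 0.0168). The 6 h call did not hold when DMSO 6 h replicate 1 was left out (0.42, adjusted p = 0.109). It did not hold either when BRM014 6 h replicate 2 was left out (0.41, adjusted p = 0.163). On the reference, 6.09% of the exon bases of Bcl2 lie opposite exons of D630008O14Rik, and without a stated strand setting the reads of such overlaps cannot be assigned to 1 gene.

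Bcl2l1, which encodes BCL-XL, went the other way. It had 141 and 137 CPM in BRM014 libraries at 30 h, against 193 and 188 CPM in DMSO libraries. At 6 h it had 119 and 126 CPM in BRM014 libraries, against 248 and 183 CPM in DMSO libraries. The groups did not overlap at either time, and the DMSO libraries of 6 h stood further apart than those of any other group for this gene. Bcl2l1 fell by 0.45 ± 0.12 on the log2 scale at 30 h (adjusted p = 0.0114) and by 0.81 ± 0.12 at 6 h (adjusted p = 0.000341). Without BRM014 30 h replicate 2 the 30 h call was lost at a log2 fold change of -0.42 (adjusted p = 0.0789). Without DMSO 6 h replicate 1, the higher of that pair, the 6 h log2 fold change was -0.54 (adjusted p = 0.00519).

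Mcl1, the short-lived anti-apoptotic member, had 245 and 232 CPM in BRM014 libraries at 30 h, against 236 and 243 CPM in DMSO libraries, and the groups overlapped. At 6 h Mcl1 had 261 and 242 CPM in BRM014 libraries, against 273 and 264 CPM in DMSO libraries. Neither time passed the test (adjusted p = 0.974 at 30 h and 0.487 at 6 h). The 95% interval of the Mcl1 log2 fold change was -0.20 to 0.19 at 30 h and -0.29 to 0.10 at 6 h. Both intervals lie wholly below the log2 fold change of Bcl2 at the same time.

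Of the effectors, Bax had 382 and 366 CPM in BRM014 libraries at 30 h, against 419 and 360 CPM in DMSO libraries. At 6 h it had 339 and 302 CPM in BRM014 libraries, against 368 and 308 CPM in DMSO libraries. The groups overlapped at both times, and Bax did not pass the test at 30 h (adjusted p = 0.722, 95% interval of the log2 fold change -0.30 to 0.18) or at 6 h (adjusted p = 0.677, interval -0.32 to 0.16). Bak1, the second pore-forming effector, had 151 and 150 CPM in BRM014 libraries at 30 h, against 118 and 109 CPM in DMSO libraries, and rose by a log2 fold change of 0.41 ± 0.09 (adjusted p = 0.00391). At 6 h Bak1 had 139 and 141 CPM in BRM014 libraries, against 125 and 112 CPM in DMSO libraries, with a log2 fold change of 0.24 ± 0.09 (adjusted p = 0.0822). Both BRM014 libraries were above both DMSO libraries at each time. The 6 h value of Bak1 passed when only the 4 libraries of 6 h were fitted (0.26, adjusted p = 0.0387) and with scaling to library totals (0.32, adjusted p = 0.0194). It also passed when DMSO 30 h replicate 2 was left out (0.27, adjusted p = 0.0428). On the reference, 25.5% of the exon bases of Bak1 lie opposite exons of Ggnbp1, and 12.2% of those of Bax are shared with Gm45808 on the same strand.

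The widest changes were among the BH3-only genes. Bmf, whose protein is held on the cytoskeleton through dynein light chain and frees itself when cells detach, had 31.0 and 23.9 CPM in BRM014 libraries at 30 h, against 98.4 and 114 CPM in DMSO libraries. At 6 h Bmf had 2.36 and 3.50 CPM in BRM014 libraries, against 20.4 and 24.8 CPM in DMSO libraries. The 6 h BRM014 values rest on 46 and 82 counts, and the DMSO values on 401 and 478 counts. At both times the groups were far apart, and the 30 h BRM014 libraries lay near the level of the 6 h DMSO libraries. Bmf fell by 1.96 ± 0.16 on the log2 scale at 30 h (adjusted p = 8.77e-07) and by 2.93 ± 0.20 at 6 h (adjusted p = 6.47e-07). Its 6 h log2 fold change was the 136th lowest of the 11835 tested genes. With each of the 8 libraries left out in turn, the log2 fold change of Bmf stayed between -2.15 and -1.77 at 30 h and between -3.25 and -2.69 at 6 h, and every one of these fits passed.

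Bbc3 encodes PUMA, a BH3-only protein that binds all anti-apoptotic members and is a well-known target of p53. It had 61.4 and 61.5 CPM in BRM014 libraries at 30 h, against 20.5 and 15.9 CPM in DMSO libraries. At 6 h Bbc3 had 26.9 and 28.3 CPM in BRM014 libraries, against 12.0 and 7.33 CPM in DMSO libraries. The BRM014 pairs were close together and above every DMSO library, including those of the other time. Bbc3 rose by a log2 fold change of 1.76 ± 0.18 at 30 h (adjusted p = 6.40e-06) and of 1.51 ± 0.19 at 6 h (adjusted p = 7.42e-05). Leaving out each library in turn gave 1.58 to 1.96 at 30 h and 1.19 to 1.95 at 6 h, and every fit passed.

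Pmaip1 encodes NOXA, which binds MCL1 and promotes its turnover. It had 55.4 and 50.6 CPM in BRM014 libraries at 30 h, against 32.2 and 38.9 CPM in DMSO libraries, and rose by a log2 fold change of 0.57 ± 0.15 (adjusted p = 0.0102). The Pmaip1 call was lost when DMSO 30 h replicate 1 was left out (0.45, adjusted p = 0.0632), and likewise for BRM014 30 h replicate 1 (0.51, adjusted p = 0.0636). At 6 h Pmaip1 had 42.8 and 30.8 CPM in BRM014 libraries, against 35.4 and 30.6 CPM in DMSO libraries, and the groups overlapped (adjusted p = 0.522, 95% interval of the log2 fold change -0.18 to 0.49).

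Bid, which caspase-8 cleaves to carry death receptor signals to mitochondria, had 88.0 and 97.9 CPM in BRM014 libraries at 30 h, against 110 and 140 CPM in DMSO libraries. The groups did not overlap, and Bid fell by 0.43 ± 0.12 on the log2 scale (adjusted p = 0.0110). The Bid call was lost when DMSO 30 h replicate 2 was left out (-0.25, adjusted p = 0.126), and likewise for BRM014 30 h replicate 1 (-0.35, adjusted p = 0.0878). At 6 h Bid had 78.5 and 81.6 CPM in BRM014 libraries, against 86.0 and 92.2 CPM in DMSO libraries, and did not pass (log2 fold change -0.15, 95% interval -0.41 to 0.10, adjusted p = 0.389). Exons of Bcl2l13 on the opposite strand cover 17.7% of the exon bases of Bid.

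Bcl2l11, which encodes BIM, an activator of BAX and BAK, had 21.1 and 17.9 CPM in BRM014 libraries at 30 h, against 15.7 and 14.6 CPM in DMSO libraries. At 6 h it had 27.0 and 25.7 CPM in BRM014 libraries, against 20.8 and 18.9 CPM in DMSO libraries. The BRM014 libraries were the higher ones at each time. Bcl2l11 rose at 6 h by a log2 fold change of 0.41 ± 0.14 (adjusted p = 0.0437), and at 30 h its value of 0.36 ± 0.14 did not pass (adjusted p = 0.0594). The 6 h call was lost without any 1 of the 4 libraries of that time (DMSO replicate 1, DMSO replicate 2, BRM014 replicate 1 or BRM014 replicate 2), with log2 fold changes of 0.33 to 0.51 and adjusted p of 0.0694 to 0.214. The 30 h value passed with scaling to library totals (adjusted p = 0.0459), and likewise when BRM014 30 h replicate 2 was left out (adjusted p = 0.0417).

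**Figure D2:**
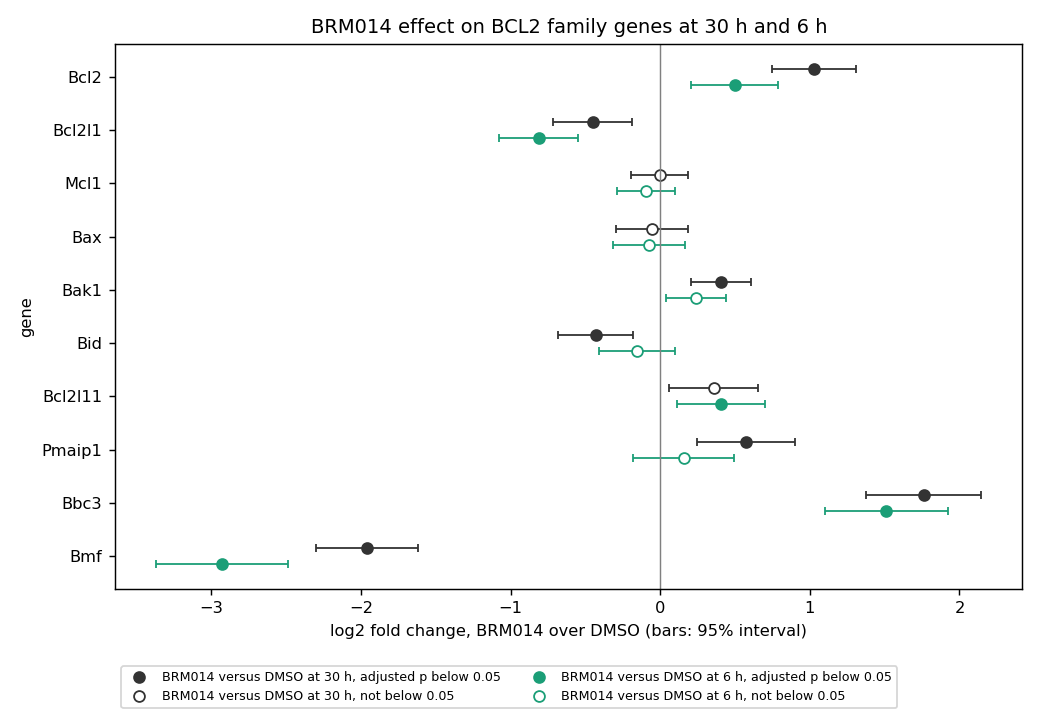
Log2 fold change of BRM014 over DMSO (horizontal axis) for each of the 10 genes (vertical axis) at 30 h and at 6 h, with 95% intervals as bars. Filled points passed an adjusted p of 0.05, and the points run from -2.93 for Bmf at 6 h to 1.76 for Bbc3 at 30 h.

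The size of the BRM014 effect at 30 h was then compared with that at 6 h in the same fit. Bmf alone among the 10 genes passed this test of the difference, where 6.47% of all tested genes passed (3.89% positive and 2.59% negative). Its fall was smaller at 30 h, with log2 fold changes of -1.96 at 30 h and -2.93 at 6 h and a difference of 0.97 ± 0.26 (adjusted p = 0.0406). The call was lost with scaling to library totals (0.93, adjusted p = 0.0578). It was also lost without 5 of the 8 libraries, with differences of 0.73 to 1.08 and adjusted p of 0.0588 to 0.231; these were DMSO 6 h replicate 1, DMSO 6 h replicate 2, DMSO 30 h replicate 1, BRM014 6 h replicate 1 and BRM014 30 h replicate 1. For Bcl2 the difference was 0.53 (95% interval 0.13 to 0.94, adjusted p = 0.119). For Bcl2l1 it was 0.36 (interval -0.01 to 0.74, adjusted p = 0.271). Without DMSO 6 h replicate 2 the Bcl2l1 difference was 0.58 and passed (adjusted p = 0.0352), in a fit where Bmf did not. For Bbc3 it was 0.25 (interval -0.31 to 0.81, adjusted p = 0.644).

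The same libraries also show how the genes moved with time in culture, and these comparisons share libraries with those of treatment. In DMSO cultures, 4 of the 10 genes passed between 30 h and 6 h, 3 higher and 1 lower at 30 h, where 35.2% of all tested genes passed (18.0% higher and 17.2% lower). The 30 h and 6 h libraries did not overlap for 6 of the 10, against 67.7% of all tested genes. Bmf was 2.23 ± 0.16 higher on the log2 scale at 30 h (adjusted p = 2.85e-06), the widest of the 4. Bbc3 was 0.90 ± 0.19 higher (adjusted p = 0.00336) and Bid 0.49 ± 0.12 higher (adjusted p = 0.00598). Without DMSO 6 h replicate 2 the Bbc3 value was 0.58 (adjusted p = 0.0345). Bcl2l11 fell by 0.39 ± 0.14 (adjusted p = 0.0424), a call lost without any 1 of 6 libraries (both DMSO 6 h, both DMSO 30 h and both BRM014 6 h replicates), with -0.47 to -0.30 and adjusted p of 0.0580 to 0.241. Other settings that lost this Bcl2l11 call were DESeq2, scaling to library totals, both other filters and a fit of these 4 libraries alone (-0.39 to -0.30, adjusted p of 0.0506 to 0.117).

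In BRM014 cultures, 5 of the 10 genes passed between 30 h and 6 h, 4 higher and 1 lower at 30 h, where 36.5% of all tested genes passed (19.6% higher and 16.9% lower). The 30 h and 6 h libraries did not overlap for 9 of the 10, against 71.6% of all tested genes. Bmf was 3.20 ± 0.20 higher on the log2 scale (adjusted p = 5.34e-07), Bbc3 1.15 ± 0.17 higher (adjusted p = 0.000309) and Bcl2 0.82 ± 0.13 higher (adjusted p = 0.000436). In DMSO cultures the Bcl2 value was 0.28 ± 0.14 (adjusted p = 0.122), and the difference between the treatments in this change, 0.53, did not pass (adjusted p = 0.119). Pmaip1 was 0.53 ± 0.15 higher at 30 h in BRM014 cultures (adjusted p = 0.0160), which was lost without BRM014 6 h replicate 2 or BRM014 30 h replicate 1 (0.30 to 0.46, adjusted p of 0.0979 to 0.201). Bcl2l11 fell by 0.44 ± 0.13 (adjusted p = 0.0203), which was lost without BRM014 6 h replicate 1, BRM014 6 h replicate 2 or BRM014 30 h replicate 2 (-0.48 to -0.32, adjusted p of 0.0673 to 0.142).

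To compare levels between genes, CPM was divided by the kilobases of merged exons of each gene. On this scale Bax was the most abundant of the 10 transcripts in every group, with 237 ± 7.16 CPM per kb in BRM014 cultures and 247 ± 26.5 CPM per kb in DMSO cultures at 30 h (SD, n = 2 each). At 6 h Bax had 204 ± 16.6 CPM per kb in BRM014 cultures and 215 ± 26.8 CPM per kb in DMSO cultures. Mcl1, Bak1 and Bcl2l1 followed in that order in each group. In DMSO libraries of 6 h, Bak1 (46.7 to 52.0 CPM per kb) and Bcl2l1 (39.8 to 54.2 CPM per kb) overlapped, so their order there is not beyond the spread. In BRM014 libraries Bak1 lay clear of Bcl2l1, with 62.5 to 62.8 against 29.8 to 30.8 CPM per kb at 30 h.

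The order changed among the less abundant members. Bbc3 ranked 5th of the 10 in BRM014 cultures at 30 h with 28.9 CPM per kb in both libraries, above Bid at 24.8 to 27.6 CPM per kb, and 8th in DMSO cultures at 7.48 to 9.65 CPM per kb. Bmf ranked 8th in BRM014 cultures at 30 h, at 4.55 to 5.91 CPM per kb, and 6th in DMSO cultures, at 18.7 to 21.7 CPM per kb. At 6 h Bmf was the lowest of all 10 in BRM014 cultures, at 0.449 to 0.665 CPM per kb, and 8th in DMSO cultures, at 3.88 to 4.73 CPM per kb. Bbc3 at 3.45 to 5.67 CPM per kb in the DMSO libraries of 6 h overlapped Bmf there. The ratio of Bbc3 to Bmf per kb was 4.90 and 6.35 in BRM014 libraries at 30 h, against 0.515 and 0.345 in DMSO libraries. At 6 h the ratio was 28.2 and 20.1 in BRM014 libraries, against 1.46 and 0.730 in DMSO libraries. Bbc3 was the more abundant of the pair in all 4 BRM014 libraries, and in 1 of the 4 DMSO libraries.

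Of the summed CPM per kb of the 5 BH3-only genes, Bbc3 made up 35.0% and 35.4% in BRM014 libraries at 30 h, against 13.2% and 8.82% in DMSO libraries. Bmf made up 7.16% and 5.56% in BRM014 libraries at 30 h, against 25.6% in both DMSO libraries. Both shares are set by the same 5 levels, so they are not independent of each other. The BH3-only genes together made up 16.7% and 17.1% of the family sum in BRM014 libraries at 30 h, against 14.6% and 17.9% in DMSO libraries, and the groups overlapped. At 6 h they made up 12.6% and 12.8% in BRM014 libraries, against 10.5% and 11.7% in DMSO libraries.

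The anti-apoptotic genes made up 21.6% and 21.3% of the family sum in BRM014 libraries at 30 h, against 22.6% and 24.1% in DMSO libraries. At 6 h they made up 24.2% and 25.0% in BRM014 libraries, against 28.8% and 29.0% in DMSO libraries. The BRM014 libraries were lower at both times, with a narrow gap at 30 h, and no test was made on these shares. They count Bcl2, Bcl2l1 and Mcl1 alone. Left out is Bcl2l2, the only other listed anti-apoptotic gene that was tested. It was higher under BRM014, with log2 fold changes of 0.76 at 30 h and 0.73 at 6 h. Among Bcl2, Bcl2l1 and Mcl1, Bcl2 was the least abundant transcript in all 8 libraries. The ratio of Bcl2l1 to Bcl2 per kb was 7.82 and 7.13 in BRM014 libraries at 30 h, against 21.6 and 20.1 in DMSO libraries, and 12.0 and 11.2 in BRM014 libraries at 6 h, against 36.0 and 22.5 in DMSO libraries. Exon lengths came from a mouse annotation of build GRCm38. The counts were made on build mm9 with an annotation that is not given in the sources used here. Merged exons take in every annotated exon of a gene, and which transcripts these cells make was not measured. Levels per kb, and the ranks and shares drawn from them, are therefore approximate.

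**Figure D3:**
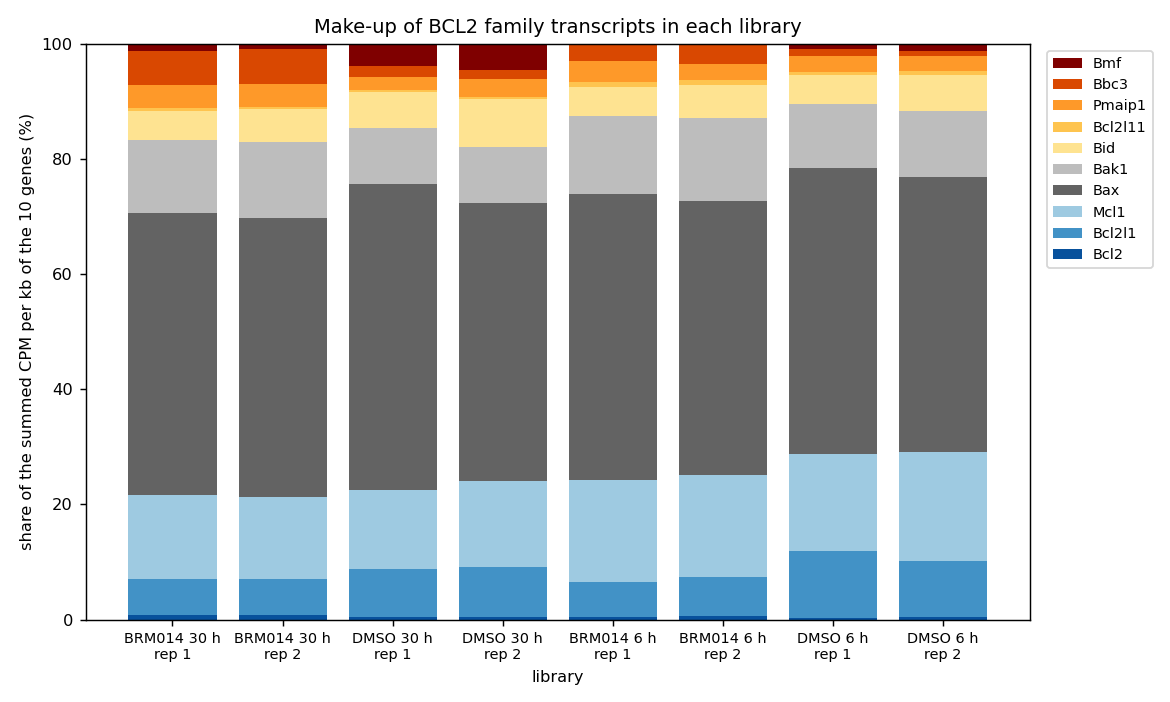
Share of each gene in the summed CPM per kb of the 10 BCL2 family genes (vertical axis, percent) in each of the 8 libraries (horizontal axis), as stacked bars without error bars. Bax filled 47.7% to 53.0% of the bar in every library, while the Bmf segment was 0.952% to 1.20% in BRM014 libraries and 3.74% to 4.59% in DMSO libraries at 30 h.

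The sequences upstream of Bmf, Bcl2l1, Bbc3 and Bcl2 are shown because these members had the smallest p at 6 h, a pair of them lower and a pair higher under BRM014. Each line is the 250 bases before the most upstream RefSeq start of the gene in the table used, 5' to 3' on the gene's own strand, from RefSeq on build GRCm38.p6. Capitals mark the GC box GGGCGG, the TEAD motif GGAATG or the NF-kB motif GGGNNTTCC, searched on both strands. In GENCODE M21 on GRCm38, whose Bbc3 model starts further upstream than the RefSeq start used here, Bmf (Entrez gene 171543) spans chr2:118528757-118549687, Bcl2l1 (12048) chr2:152780668-152831728, Bbc3 (170770) chr7:16308393-16318205 and Bcl2 (12043) chr1:106538178-106714274. The printed stretches lie at chr2:118549687-118549936 (minus strand), chr2:152831729-152831978 (minus strand), chr7:16309333-16309582 (plus strand) and chr1:106714291-106714540 (minus strand).
Bmf: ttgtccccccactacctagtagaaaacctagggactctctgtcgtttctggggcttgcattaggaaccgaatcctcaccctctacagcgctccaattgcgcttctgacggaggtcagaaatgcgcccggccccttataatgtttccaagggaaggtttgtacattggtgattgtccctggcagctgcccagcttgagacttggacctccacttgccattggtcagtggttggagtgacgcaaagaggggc
Bcl2l1: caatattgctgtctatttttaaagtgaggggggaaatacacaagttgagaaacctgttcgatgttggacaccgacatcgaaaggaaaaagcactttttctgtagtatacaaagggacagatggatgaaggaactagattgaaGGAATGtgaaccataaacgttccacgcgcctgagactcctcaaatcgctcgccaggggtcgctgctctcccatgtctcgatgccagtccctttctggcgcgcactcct
Bbc3: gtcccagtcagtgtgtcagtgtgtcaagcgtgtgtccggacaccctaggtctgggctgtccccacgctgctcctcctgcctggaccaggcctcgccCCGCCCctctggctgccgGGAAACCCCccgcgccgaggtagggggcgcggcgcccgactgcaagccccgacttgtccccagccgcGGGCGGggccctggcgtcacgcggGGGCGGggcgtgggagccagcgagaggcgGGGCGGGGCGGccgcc
Bcl2: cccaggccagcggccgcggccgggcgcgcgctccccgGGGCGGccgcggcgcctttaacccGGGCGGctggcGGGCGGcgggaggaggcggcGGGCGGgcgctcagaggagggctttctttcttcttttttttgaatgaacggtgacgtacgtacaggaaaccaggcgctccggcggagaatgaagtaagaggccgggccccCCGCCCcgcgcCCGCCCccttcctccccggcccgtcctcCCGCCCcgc

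Over windows of 300 bases that also take in the first 50 transcribed bases, G and C made up 55.3% for Bmf and 52.3% for Bcl2l1, the genes that fell, and 76.0% for both Bbc3 and Bcl2, the genes that rose. Bak1 and Bid, which also passed at 30 h, did not follow that order. Bak1, which rose, had 58.3% and no GC box, and Bid, which fell, had 63.3% and 3 GC boxes. Pmaip1 also rose and passed at 30 h, but its window was not used, so it is missing from this comparison. The windows of Mcl1 and Bax, which passed at neither time, held 65.7% and 57.3%. That of Bcl2l11, which rose and passed at 6 h, held 71.0%. The median over all 32851 such RefSeq windows was 52.7%. The Bmf and Bcl2l1 windows held 13 and 22 CpG dinucleotides, and the Bbc3 and Bcl2 windows held 34 and 44. Over all windows the median was 7 and the upper quartile 20. The GC box was found 5 times in the Bbc3 window and 7 times in the Bcl2 window. It occurred once in the Bmf window across its start site and not in that of Bcl2l1. The windows of Bax and Bcl2l11 held 3 each and that of Mcl1 held 1, while 35.7% of all windows held it. The TEAD letters occurred in the Bcl2l1 window at position -108 from the start, in the Mcl1 window at position -199, and in 14.7% of all windows. The NF-kB letters occurred in the Bbc3 window at position -136, in a second window of Bcl2l1 at position -122, and in 5.82% of all windows. The AP-1 letters TGANTCA were in no window of the members that was read, and in 7.81% of all windows. Also searched were CRE (TGACGTCA) and TATA box (TATAAA) letters, found in none of the members' windows that were read. They were in 1.79% and 13.6% of all windows. ETS letters (CCGGAAG) occurred in windows of Bcl2l1, Mcl1 and Bcl2l11, and in 8.86% of all windows. E-box letters (CACGTG) occurred in windows of Bax and Bbc3, and in 7.15% of all windows. These are matches of letters, with no test, and which start these cells use was not measured.

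For the 3 genes with the smallest p at 30 h, the tested genes whose log2 CPM ran most like theirs over the 8 libraries were looked up among 9745 candidates. For Bmf they were Celsr1, a cadherin of planar cell polarity (r = 0.990), Rhbdl2, a rhomboid protease (r = 0.990), and Ube2h, a ubiquitin-conjugating enzyme (r = 0.989). For Bbc3 they were Nfkb1, an NF-kB subunit (r = 0.989), Ttll1 (r = 0.986) and Pomgnt2, a glycosyltransferase (r = 0.985). For Bcl2 they included Traf2, an adaptor of TNF receptors (r = 0.993), and Naaa, a lysosomal amidase (r = 0.992). The 8 points fall into 4 groups and share their library scaling, so these values describe likeness and carry no p.

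Around the 10 genes, 64 further genes of apoptosis were listed by function, of which 52 passed the filter on low counts. The other 12, among them Bik, Hrk, Bcl2l10 and the Bcl2a1 genes, had 0 to 11 counts over all 8 libraries. At 30 h, 12 of the 52 rose and 8 fell, a share near the 35.9% of all tested genes that passed, and the median log2 fold change of the 52 was 0.04, against -0.0046 over all tested genes. Bcl2l2, which encodes the anti-apoptotic protein BCL-W, had 50.5 and 47.9 CPM in BRM014 libraries, against 27.3 and 30.6 CPM in DMSO libraries, and rose by a log2 fold change of 0.76 ± 0.11 (adjusted p = 0.000149). Bok, a relative of Bax and Bak1, was the 1 to pass of 7 tested genes listed as other pro-apoptotic or BH3-like BCL2 genes. It fell by 0.76 ± 0.17 (adjusted p = 0.00307). Without DMSO 30 h replicate 1 its value was -0.43 (adjusted p = 0.0368).

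Of 16 apoptosome, caspase and mitochondrial genes, 4 rose and 4 fell at 30 h, where 16.8% of all tested genes rose and 19.1% fell. Apaf1, the scaffold of the apoptosome, rose by a log2 fold change of 0.65 ± 0.16 (adjusted p = 0.00628), and Vdac2, an outer membrane channel known to bind BAK, fell by 0.39 ± 0.09 (adjusted p = 0.00342). The Apaf1 call was lost without BRM014 30 h replicate 1 (0.37, adjusted p = 0.0838).

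Of 5 genes for inhibitors of apoptosis, Birc3, which encodes cIAP2, passed at 30 h. It had 10.9 and 11.1 CPM in BRM014 libraries, against 2.55 and 2.89 CPM in DMSO libraries, a log2 fold change of 2.01 ± 0.25 (adjusted p = 4.22e-05), the widest among the 52. Of 8 death receptor genes, 3 rose and 2 fell, beside the same 16.8% and 19.1% of all tested genes. Traf2 rose by 0.81 ± 0.09 (adjusted p = 1.84e-05), the TRAIL receptor gene Tnfrsf10b by 0.88 ± 0.12 (adjusted p = 0.000110) and Cflar, a brake on caspase-8, by 0.44 ± 0.11 (adjusted p = 0.00635). Tnfrsf1a, the TNF receptor gene, fell by 0.50 ± 0.09 (adjusted p = 0.000822).

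A list of 9 tested genes held transcription factors known to act on the family and the p53 antagonist Mdm2. Of these 9, 3 rose and none fell at 30 h, again beside 16.8% and 19.1% of all tested genes. Ddit3, which encodes CHOP of the endoplasmic reticulum stress response, had 52.4 and 61.1 CPM in BRM014 libraries, against 17.3 and 20.8 CPM in DMSO libraries, and rose by a log2 fold change of 1.58 ± 0.16 (adjusted p = 7.87e-06). Myc rose by 0.65 ± 0.17 (adjusted p = 0.00843), lost without DMSO 30 h replicate 2 or BRM014 30 h replicate 1 (0.48 to 0.61, adjusted p of 0.0509 to 0.0653). Atf4 rose by 0.31 ± 0.09 (adjusted p = 0.0174), lost without DMSO 30 h replicate 2 or BRM014 30 h replicate 2 (0.27 to 0.28, adjusted p of 0.0828 to 0.0981). Of 6 genes for partners and ubiquitin enzymes of BCL2 proteins, Dynll2, a dynein light chain that binds BMF, fell by 0.60 ± 0.09 (adjusted p = 0.000150). Trp53, which encodes p53, had a log2 fold change of -0.19 ± 0.11 at 30 h (adjusted p = 0.181).

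At 6 h, 9 of the 52 further apoptosis genes rose and 3 fell, a share near the 23.8% of all tested genes that passed, with a median log2 fold change of -0.0024, against -0.012 over all tested genes. Bcl2l2 rose by a log2 fold change of 0.73 ± 0.11 (adjusted p = 0.000367), and Bnip3, a mitophagy receptor with a BH3-like motif, by 1.00 ± 0.20 (adjusted p = 0.00251). These calls held with each library left out. The BH3-only gene Bad rose by 0.57 ± 0.12 (adjusted p = 0.00447), Traf2 by 0.41 ± 0.09 (adjusted p = 0.00617), Ddit3 by 0.68 ± 0.17 (adjusted p = 0.00964) and Tnfrsf10b by 0.48 ± 0.12 (adjusted p = 0.0130). The Bad call was lost without BRM014 6 h replicate 2 (0.47, adjusted p = 0.0741), as was that of Traf2 (0.41, adjusted p = 0.0589). That of Ddit3 was lost without DMSO 6 h replicate 2 or BRM014 6 h replicate 2 (0.43 to 0.64, adjusted p of 0.0756 to 0.109), and that of Tnfrsf10b without DMSO 6 h replicate 2 or BRM014 6 h replicate 1 (0.35, adjusted p of 0.132 to 0.152).

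The other 6 h calls in these lists were close to the threshold. Diablo, an antagonist of inhibitor of apoptosis proteins, rose by 0.34 ± 0.11 (adjusted p = 0.0313), the adaptor gene Fadd rose by 0.37 ± 0.12 (adjusted p = 0.0348), and the kinase gene Ripk1 fell by 0.31 ± 0.09 (adjusted p = 0.0253). Each of these calls was lost without any 1 of the 4 libraries of 6 h, with Diablo then at 0.30 to 0.39 (adjusted p of 0.0833 to 0.209), Fadd at 0.33 to 0.41 (adjusted p of 0.0884 to 0.205) and Ripk1 at -0.36 to -0.24 (adjusted p of 0.0505 to 0.203). Scaling to library totals also lost Ripk1 (-0.23, adjusted p = 0.0771). In the main edgeR fit at 30 h, Diablo (0.35, adjusted p = 0.0183) and Ripk1 (-0.36, adjusted p = 0.00907) passed in the same direction. Fadd did not pass there (-0.09, adjusted p = 0.570). Apaf1 rose by 0.47 ± 0.16 (adjusted p = 0.0489), lost without DMSO 6 h replicate 1, DMSO 6 h replicate 2 or BRM014 6 h replicate 1 (0.30 to 0.52, adjusted p of 0.118 to 0.342). Trp53 fell by 0.32 ± 0.11 (adjusted p = 0.0477), a call lost without 6 of the 8 libraries, both BRM014 pairs, DMSO 6 h replicate 1 and DMSO 30 h replicate 2 (-0.36 to -0.13, adjusted p of 0.0572 to 0.517). The Trp53 call was also lost with RLE factors, library totals and the stricter filter (-0.31 to -0.23, adjusted p of 0.0563 to 0.119). Of the 5 genes for inhibitors of apoptosis, none passed at 6 h by edgeR, and none had an unadjusted p under 0.05 (the lowest was 0.210, for Birc5).

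**Figure D4:**
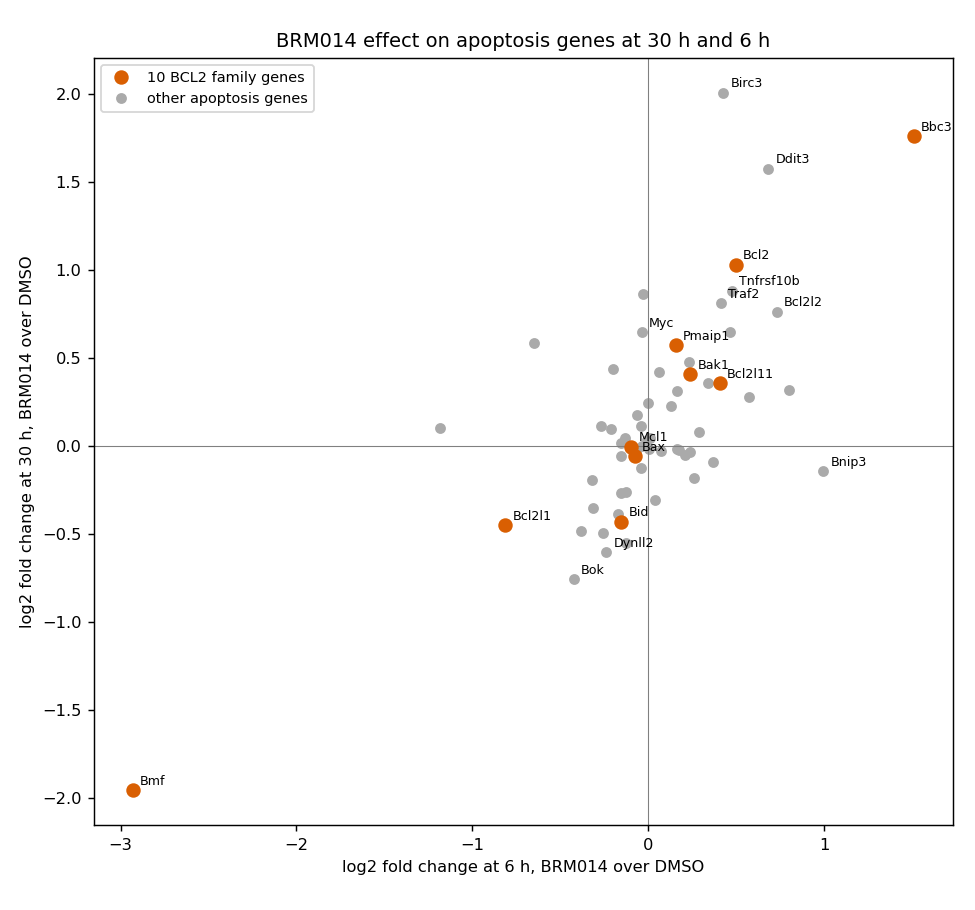
Log2 fold change of BRM014 over DMSO at 30 h (vertical axis) and at 6 h (horizontal axis) for the 10 BCL2 family genes and the 52 other tested apoptosis genes, 1 point per gene and no error bars; all BCL2 family genes are named, as are some of the other genes past 0.6 at either time. Bmf sits alone at the lower left (-1.96 at 30 h, -2.93 at 6 h) and Bbc3 at the upper right (1.76 at 30 h, 1.51 at 6 h), while Birc3 (2.01 at 30 h) was high on the 30 h axis.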

How the data were processed

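RNA was sequenced from 8 NMuMG libraries, and the authors deposited 1 table of raw counts per gene. Per the submitters' processing notes, mm9, Subread, featureCounts and SAMtools 0.1.19 were used; the annotation, strand setting and other versions are not given in the sources used here. With R 4.3.3, genes were filtered with filterByExpr (11835 of 21240 genes kept), scaled by TMM and fitted with edgeR 4.0.16 as 4 group means over all 8 libraries. Each contrast used edgeR's quasi-likelihood test with Benjamini-Hochberg adjustment over all tested genes, at 0.05; the contrasts were BRM014 against DMSO at each time, the difference of these effects, and 30 h against 6 h within each treatment. CPM values are TMM-scaled, errors of log2 fold changes are SE, and 95% intervals use the residual spread on 4 degrees of freedom plus the shared prior. The biological coefficient of variation was 9.30%. Before use, the test was tried on simulated counts drawn with the spread estimated from these libraries, which is no check of the calls made here.

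The 10 genes and all lists were chosen with earlier results of these data known. Named in the text are the 10 genes, up to 4 genes with the smallest p per list and time among those past the threshold, and for each of 3 genes the 3 others with the highest Pearson r. Mdm2 was named after its values were seen. Some genes that this rule names are not reported here. Alternatives were RLE factors, library totals, no filter, a filter of 1 CPM in at least 4 libraries, DESeq2 1.42.0, the 4 libraries of a comparison alone, the replicate number as a block, and each library left out. Exon lengths, from GENCODE M21 on GRCm38, and RefSeq windows on GRCm38.p6 were joined by symbol. The window of Pmaip1 was not used. Where an arm is left with 1 library, that library is assumed to vary like the other groups. No replicate pair matched within counting noise (6.67 to 18.2 by chi-square over its degrees of freedom), so none was treated as a repeat deposit of 1 library.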

Additional observations from a re-analysis of the deposited data

Results flagged for a closer look

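Of the 10 BCL2 family genes and the 52 other tested apoptosis genes, 6 passed a test of the difference itself. It compared the BRM014 effect at 30 h with that at 6 h by edgeR's quasi-likelihood test with Benjamini-Hochberg adjustment. Over all tested genes, 6.47% passed that test. For Bmf the difference was 0.97 on the log2 scale (adjusted p = 0.0406), from effects of -1.96 at 30 h and -2.93 at 6 h. For Birc3 it was 1.58 (adjusted p = 0.0450), with 10.9 and 11.1 CPM in BRM014 libraries and 2.55 and 2.89 CPM in DMSO libraries at 30 h, and 1.08 and 1.79 CPM in BRM014 libraries and 0.86 and 1.30 CPM in DMSO libraries at 6 h. For Ddit3 it was 0.89 (adjusted p = 0.0373), from effects of 1.58 at 30 h and 0.68 at 6 h. For Cflar it was 0.64 (adjusted p = 0.0237), with 97.9 and 90.1 CPM in BRM014 libraries and 67.7 and 71.0 CPM in DMSO libraries at 30 h, and 67.2 and 69.2 CPM in BRM014 libraries and 85.8 and 71.2 CPM in DMSO libraries at 6 h.

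For Bnip3 the difference was -1.14 (adjusted p = 0.0187), with 26.9 and 23.4 CPM in BRM014 libraries and 32.8 and 22.8 CPM in DMSO libraries at 30 h, and 10.0 and 9.89 CPM in BRM014 libraries and 4.93 and 5.04 CPM in DMSO libraries at 6 h. For Mdm2 it was 1.23 (adjusted p = 0.0376), while neither effect alone passed (adjusted p = 0.0632 for 0.58 at 30 h, and 0.0552 for -0.65 at 6 h), and DESeq2 did not call the difference (adjusted p = 0.167).

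All 6 calls depended on single libraries. The Bmf call was lost without DMSO 6 h replicate 1, DMSO 6 h replicate 2, DMSO 30 h replicate 1, BRM014 6 h replicate 1 or BRM014 30 h replicate 1 (0.73 to 1.08). Birc3 lost its call when any 1 library other than BRM014 6 h replicate 2 was left out (1.28 to 1.82), and with library totals (1.54, adjusted p = 0.0544). Bnip3 lost it without any 1 of the 4 libraries of 6 h or BRM014 30 h replicate 2 (-1.15 to -1.03). Cflar lost it without DMSO 6 h replicate 1, either BRM014 6 h library or BRM014 30 h replicate 1 (0.47 to 0.66). Ddit3 lost it without DMSO 6 h replicate 1, DMSO 30 h replicate 1, either BRM014 6 h library or BRM014 30 h replicate 2 (0.56 to 0.93). Mdm2 lost it without DMSO 6 h replicate 1, DMSO 30 h replicate 2, BRM014 6 h replicate 2 or BRM014 30 h replicate 1 (0.87 to 1.14).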

How the results depend on the processing

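Of 340 values of the 10 genes under the settings other than leaving out a library, 319 kept direction and call, 6 lost the call, 6 gained it and 9 changed sign. With each library left out, 349 of 400 kept both, 27 lost the call, 4 gained it and 20 changed sign. No value that changed sign had passed. With library totals, Bax at 6 h was 0.0091, Mcl1 at 30 h 0.031, the Bax difference -0.032 and Bak1 between times in DMSO 0.027, and 0 of the 10 genes were called in the difference. Mcl1 at 30 h was 0.0018 with RLE factors, 0.0017 with DESeq2 and 0.0037 with 4 libraries. The Bax difference was -0.0082 with no filter and -0.00062 with the stricter filter. Genes called in the difference numbered 1309 with no filter and 1237 with the replicate block, against 766.

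Leaving out each library gave 3068 to 4192 genes called at 30 h, 1415 to 3144 at 6 h, 351 to 921 in the difference, 2331 to 4223 between times in DMSO and 2227 to 4683 in BRM014. Of the 10 genes, 5 to 7 were called at 30 h, 3 to 6 at 6 h, 0 to 1 in the difference (Bcl2l1 in place of Bmf without DMSO 6 h replicate 2), 3 to 4 between times in DMSO and 3 to 5 in BRM014. Changes of sign, as ranges, were at 30 h Mcl1 -0.041 to 0.041 and Bax -0.17 to 0.064; at 6 h Bax -0.20 to 0.090 and Pmaip1 -0.10 to 0.38; in the difference Bax -0.14 to 0.15, Bbc3 -0.18 to 0.58 and Bcl2l11 -0.17 to 0.076; and between times in DMSO Bcl2l1 -0.40 to 0.082, Bak1 -0.15 to 0.037 and Pmaip1 -0.0096 to 0.24. The cause was not tested.

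Library totals moved the median of all genes at 6 h to 0.07, and the lower share of called genes to 45.1%, against -0.012 and 60.7% with TMM. Between times in DMSO that share was 34.1%, against 48.8% with TMM. Replicate numbers are not said to mark a shared batch, and same-numbered libraries deviated together weakly (r = 0.011 to 0.201). Setting the replicate number as a block raised the number of genes called in every comparison. With the replicate number as a block, Bcl2l11 at 30 h (adjusted p = 0.0370) and Bax between times in BRM014 (adjusted p = 0.0492) passed, and no other call of the 10 genes changed. In the apoptosis lists 8 genes passed in the difference with the block or with no filter, against 5. At 6 h, 18 passed with the block or with 4 libraries, against 12 of 52 in the main fit. Calls over all tested genes also rose under the same settings, and whether the lists gained more than all genes was not tested. At 6 h the calls over all tested genes were 1359 higher and 1995 lower with the block, and 1516 and 1919 with 4 libraries. The main fit had 1106 higher and 1709 lower. The number of libraries, 2 in each group, limits the precision of all these values.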
